A study of Mus musculus with 8 samples.

Results

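Hox genes were measured in full-thickness skin from E17.5 mouse embryos, shortly before birth, as the set of genes whose array row carried exactly 1 gene symbol made of Hox, a cluster letter from a to d and a paralog number. This rule found 37 of the 19938 genes with a single-symbol row: 10 in the Hoxa cluster and 9 each in the Hoxb, Hoxc and Hoxd clusters. Each of the 37 had 1 such row, and dim rows were kept. The row shared by Hoxb8 and Hoxb7 was left out, together with the rows of Hoxd3os1 and Hoxaas2.

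The study hybridised 8 single-colour Affymetrix arrays, 1 for each RNA: 4 from embryos with PPARgamma wildtype, here called control, and 4 from embryos with PPARgamma null (PpargΔ/Δ), here called labelled null, both of strain Mixed C57BL6/SV129. PPARgamma, the product of Pparg, is a nuclear receptor required for fat cells to form. Its own row was not lower on the labelled-null arrays (8.94 ± 0.13 in control and 9.12 ± 0.10 in labelled null; log2 values, SD, n = 4 each), and the deleted stretch of the gene is not named in the labels, so the row may read outside it. Known PPARgamma targets were lower on these arrays with groups that did not overlap: Cd36, a fatty acid transporter, differed by -0.92 and Fabp4, a fatty acid binding protein, by -1.13 (limma adjusted p = 0.00728 and 0.0229). The embryos were decapitated and the skin was then taken. The labels name no body region, litter or sex, so the p-values below measure the spread between these RNAs. Xist, a gene expressed in female cells, ran from 4.86 to 12.27 in control and from 5.08 to 12.17 in labelled null. Both groups thus held arrays with low and with high Xist.

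Hox genes encode homeodomain transcription factors that stand in 4 clusters, Hoxa to Hoxd, in which genes at one end (low paralog numbers) are expressed toward the head and genes at the other end (high numbers) toward the tail and the tips of the limbs. Genes with the same number in different clusters are paralogs. Dermal fibroblasts keep a pattern of Hox expression that depends on where on the body they sit, so the Hox profile of a skin sample bears on the site from which it was cut. Hoxc13 stands apart in this family because it is also expressed in the differentiating hair follicle, where hair keratin expression depends on it.

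Over the 8 arrays, most Hox rows of paralog groups 1 to 10 read above a mark for dim rows. Those of groups 11 to 13 were split. Values are log2 signals, and a row was taken as dim when it did not lie above the 30th percentile of its array (5.62 to 5.67) on at least 4 of 8 arrays. By this measure 31 of 37 members were not dim, and 23 were above the 50th percentile on at least 4 of 8 arrays. The mark is not a test of whether a gene is expressed. All 10 members of paralog groups 5 to 8 and 10 of 11 of groups 1 to 4 were above that mark; the exception was Hoxd1. All 7 members of groups 9 and 10 were above it as well. Of the 9 members of groups 11 to 13, Hoxa11, Hoxc11, Hoxc12, Hoxd12 and Hoxd13 were dim, and Hoxa13, Hoxb13, Hoxd11 and Hoxc13 were not. Hoxb13 lay beside the mark, above it on 5 of 8 arrays but with a mean of 5.59. The median level over arrays and members was 7.14 for groups 1 to 4, 8.04 for groups 5 to 8, 6.99 for groups 9 and 10 and 5.45 for groups 11 to 13. Rows of different genes rest on different probes, so the order of these levels is not an order of transcript amounts.

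**Figure D1:**
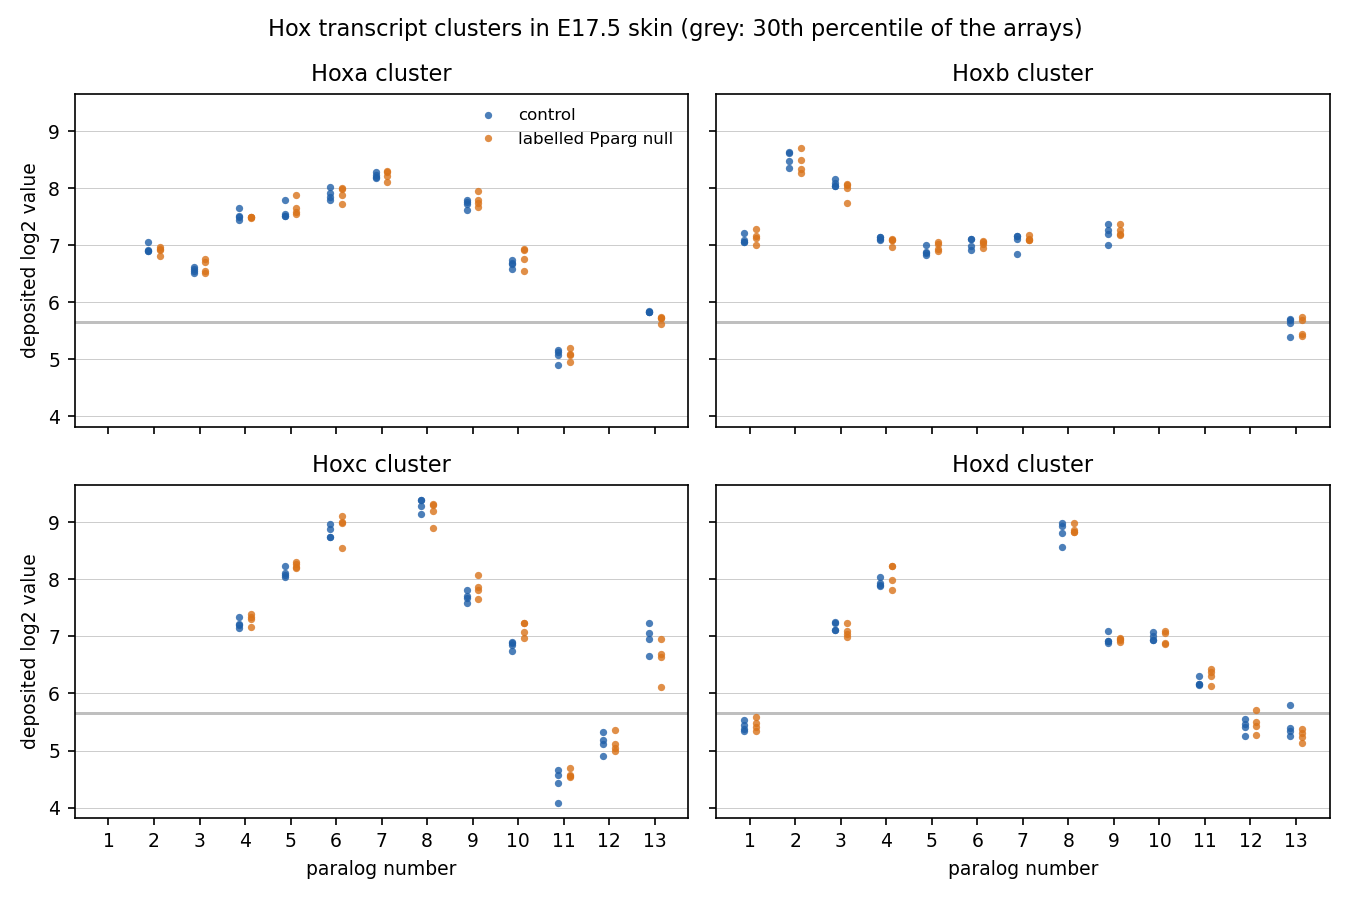
Deposited log2 value (y axis) of each Hox gene against its paralog number (x axis), 1 panel per cluster, with 1 point per array (4 control, 4 labelled null) and a grey band at the 30th percentile of the arrays (5.62 to 5.67). In the Hoxa, Hoxc and Hoxd clusters the values are highest at paralogs 7 or 8, in the Hoxb cluster they are highest at paralog 2, and the points of both groups overlap at all genes but Hoxc10 and Hoxa13.

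In the Hoxc cluster the brightest members were Hoxc8 and Hoxc6, genes of thoracic identity. Hoxc8 read 9.28, 9.39, 9.14 and 9.38 on control arrays 1 to 4 and 8.91, 9.32, 9.19 and 9.29 on labelled-null arrays 1 to 4. The groups overlapped, and labelled-null array 1 read lowest (difference of -0.12, SE 0.097, labelled null minus control). Hoxc6 read 8.74, 8.96, 8.75 and 8.88 on the control arrays and 9.10, 8.99, 9.01 and 8.54 on the labelled-null arrays, with labelled-null array 4 below all other arrays. The members beside them, Hoxc4 and Hoxc5, which act at the level of the neck and upper thorax, had means over all arrays of 7.27 and 8.18. Hoxc9, a gene of the lower thorax, was at 7.77, and Hoxc10, which acts at the lumbar level and in the hindlimb, was at 6.99. Hoxc11 and Hoxc12 were dim at 4.51 and 5.13.

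In the Hoxd cluster Hoxd8 and Hoxd4 were the brightest members. Hoxd8 read 8.56, 8.93, 8.98 and 8.82 on the control arrays and 8.98, 8.84, 8.82 and 8.86 on the labelled-null arrays, where control array 1 was lowest and the groups overlapped. Hoxd4, a gene of neck vertebra identity, read 7.93, 7.88, 7.90 and 8.04 on the control arrays and 8.23, 7.99, 8.24 and 7.81 on the labelled-null arrays, so the labelled-null arrays spread to both sides of control. Further along the cluster Hoxd9 and Hoxd10 had means of 6.95 and 6.98 and Hoxd11 6.25, while Hoxd12 and Hoxd13, which pattern the limb ends, were dim at 5.45 and 5.35. At the head end Hoxd3 was at 7.14 and Hoxd1 was dim at 5.44.

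Promoter windows from RefSeq (GRCm38.p6; 250 bases before to 50 after a gene's start) were given for 21 of the 37 members, among them all 9 of the Hoxd cluster, 9 of the Hoxa cluster, Hoxb1, Hoxb4 and Hoxc4. Those of Hoxd8, the brightest Hoxd member, and of Hoxd13, its dimmest, are shown with that of Hoxa13, whose groups did not overlap, because they hold few and many CpG pairs. CpG pairs, the sites of DNA methylation, are in capitals.
Hoxd8 (chr2:74704365-74704664, plus strand): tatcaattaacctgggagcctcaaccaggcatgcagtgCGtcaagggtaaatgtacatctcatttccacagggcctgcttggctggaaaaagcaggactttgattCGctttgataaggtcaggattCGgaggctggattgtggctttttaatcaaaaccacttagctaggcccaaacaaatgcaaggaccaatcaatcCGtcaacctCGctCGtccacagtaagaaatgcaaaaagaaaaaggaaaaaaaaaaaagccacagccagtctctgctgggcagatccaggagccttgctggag
Hoxd13 (chr2:74667975-74668274, plus strand): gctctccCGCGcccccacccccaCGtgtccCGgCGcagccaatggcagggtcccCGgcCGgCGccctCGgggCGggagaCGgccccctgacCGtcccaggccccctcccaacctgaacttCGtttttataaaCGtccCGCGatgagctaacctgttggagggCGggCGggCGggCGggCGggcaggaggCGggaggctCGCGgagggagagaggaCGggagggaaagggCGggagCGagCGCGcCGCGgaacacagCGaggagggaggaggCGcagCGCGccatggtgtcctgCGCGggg
Hoxa13 (chr6:52260831-52261130, minus strand): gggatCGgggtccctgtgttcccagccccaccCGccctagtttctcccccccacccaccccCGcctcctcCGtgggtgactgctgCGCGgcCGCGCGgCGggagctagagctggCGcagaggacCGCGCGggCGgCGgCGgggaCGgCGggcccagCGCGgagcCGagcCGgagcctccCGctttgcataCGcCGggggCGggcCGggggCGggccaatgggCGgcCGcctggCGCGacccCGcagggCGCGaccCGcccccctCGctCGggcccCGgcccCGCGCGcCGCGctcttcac
The Hoxd8 window held 6 CpG pairs, that of Hoxd13 37 and that of Hoxa13 45. These windows were picked for that contrast, and other members were mixed. The brightest Hoxa members, Hoxa7 and Hoxa6, held 9 and 26, and Hoxd4, the next brightest Hoxd member after Hoxd8, held 4. Of the other dim members with a window, Hoxa11 held 15, Hoxd12 13 and Hoxd1 29. Whether CpG count goes with level was not tested. The 23 windows of members (Hoxa10 and Hoxd11 have more than 1) held a median of 15, from 4 to 45, and the 32851 windows in all a median of 7. The ratio of observed to expected CpG had a median of 0.60 in members and 0.38 in all windows. On either strand, a pair of AGGTCA repeats with 1 base between them, a strict form of the element that PPARgamma binds with RXR, was in 0 of 23 member windows and in 0.0396% of all windows. The same pair with 5 bases between them, a strict form of a retinoic acid response element, was in 0 of 23 and in 0.00913% of all. The composite letters TGATNNAT, bound by Hox proteins with their Pbx partners, were in 3 member windows (Hoxa2, Hoxb1 and Hoxd11) and in 8.85% of all, and TATAAA in 3 (Hoxa10, Hoxd4 and Hoxd13) and in 13.6% of all. A match describes letters in the window and is not a measured site.

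In the Hoxa cluster Hoxa7 and Hoxa6 were brightest. Hoxa7, a thoracic gene, read 8.19, 8.18, 8.29 and 8.23 on the control arrays and 8.21, 8.11, 8.28 and 8.30 on the labelled-null arrays. Hoxa6 read 7.80, 7.85, 7.91 and 8.02 on the control arrays and 7.99, 7.88, 8.01 and 7.73 on the labelled-null arrays. For both genes the groups covered nearly the same range. Hoxa9, Hoxa5 and Hoxa4 had means of 7.75, 7.62 and 7.51, and Hoxa2 and Hoxa3, which shape pharyngeal arches, had means of 6.93 and 6.60. Hoxa10, a lumbar gene, was at 6.73, Hoxa13 at 5.77, and Hoxa11, a gene of the middle limb segment, was dim at 5.08.

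Among the rows measured, the Hoxb cluster was the exception to a highest value at the middle, with its brightest members at the head end. Hoxb8, the paralog of the brightest Hoxc and Hoxd members, had no row of its own. The row it shares with Hoxb7, left out by the member rule, read 6.45 to 6.65 in control and 6.33 to 6.64 in labelled null. Hoxb2, which acts in the hindbrain and its neural crest, read 8.36, 8.48, 8.61 and 8.63 on the control arrays and 8.26, 8.49, 8.69 and 8.34 on the labelled-null arrays. Hoxb3 read 8.03, 8.10, 8.04 and 8.15 on the control arrays and 8.001, 8.05, 8.07 and 7.74 on the labelled-null arrays, where array 4 lay below the rest. Hoxb1, Hoxb4, Hoxb5, Hoxb6, Hoxb7 and Hoxb9 all had means between 6.94 and 7.23, and Hoxb13, a gene of the tail end, read 5.59.

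Between the groups, 0 of 37 Hox genes passed limma's test at an adjusted p of 0.05, fitted and adjusted over all 19938 genes, where 16 genes (0.0802%) passed. At an unadjusted limma p under 0.05 there were 3 members, Hoxc10, Hoxa13 and Hoxc5 (3.57% of all genes), of which 2 lay higher (1.74% of all genes) and 1 lower (1.83%). The groups did not overlap for 2 members, Hoxc10 and Hoxa13, beside 2.32% of all genes: Hoxc10 lay higher in labelled null (0.833% of all genes did so) and Hoxa13 lower (1.48%). Labelled-null means lay above control for 22 members and below for 15, beside 50.6% above among all genes. The median difference was 0.03 over the members and 0.001 over all genes, and without control array 1 it was -0.0005 over the members. The median size of a difference, whatever its sign, was 0.07 over the members and 0.05 over all genes.

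The intervals set the size of difference in log2 signal these arrays could have missed. They do not bound a difference in transcript amount for dim members, or for Hoxa13 and Hoxb13 beside the mark for dim rows. Such rows may vary little whether or not the transcript does. For 36 of 37 members the 95% confidence interval of the difference, not adjusted for the number of genes, lay within 1.5-fold either way (0.58 on the log2 scale), and Hoxc13 was the exception, with an interval of -0.76 to 0.01. All 37 intervals lay within 2-fold. Half-widths ran from 0.11 (Hoxa13) to 0.38 (Hoxc13), and 25 members differed by less than 0.1.

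**Figure D2:**
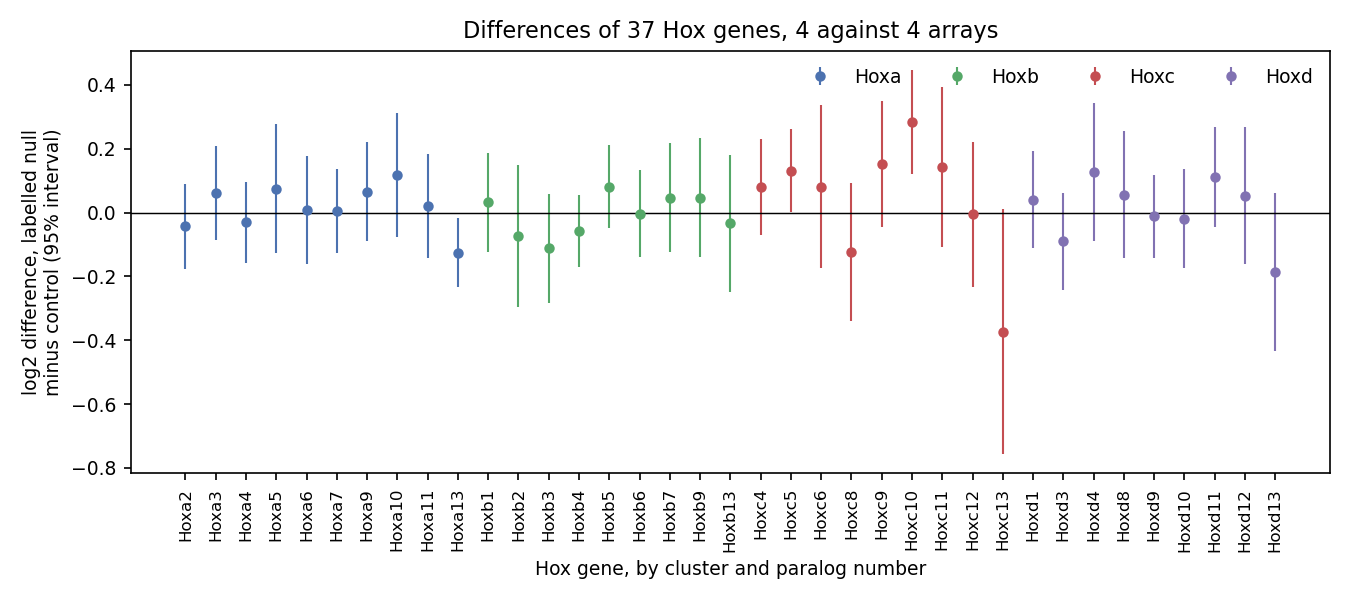
Log2 difference, labelled null minus control, of each Hox gene (points; y axis) with its 95% confidence interval (bars), ordered by cluster and paralog number (x axis), 4 against 4 arrays. Most points lie within 0.1 of 0; Hoxc10 at 0.28 and Hoxc13 at -0.37 lie farthest out, and the bar of Hoxc13 is the widest.

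Hoxc10, the lumbar and hindlimb gene, was the member nearest to the threshold. It read 6.74, 6.90, 6.85 and 6.89 on control arrays 1 to 4 and 7.24, 7.24, 6.97 and 7.08 on labelled-null arrays 1 to 4. All labelled-null arrays lay above all control arrays, by the least on labelled-null array 3. The means were 6.85 ± 0.07 and 7.13 ± 0.13 (SD, n = 4 each), a difference of 0.28 (SE 0.073), or 1.22-fold. By exact two-sided permutation p was 0.0286, which is the lowest value 4 against 4 arrays allow, and the limma adjusted p was 0.736. Under the other settings tried its difference ran from 0.25 to 0.34, and the limma adjusted p from 0.357 (without labelled-null array 3) to 1.

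Its neighbours and paralogs were mixed. Hoxc9 read 7.59, 7.70, 7.67 and 7.82 on the control arrays and 8.07, 7.86, 7.81 and 7.65 on the labelled-null arrays, a difference of 0.15 (SE 0.088) with overlapping groups. Hoxa10 differed by 0.12 and read higher on labelled-null arrays 1, 2 and 3 (6.92, 6.94 and 6.76) than on any control array (6.58 to 6.74), while labelled-null array 4 was the lowest of all at 6.55. Hoxd10, the remaining measured paralog, differed by -0.02, and labelled-null array 1 had its lowest value (6.86). Hoxa9, Hoxb9 and Hoxd9 differed by 0.06, 0.05 and -0.01.

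Hoxc5 read 8.07, 8.23, 8.12 and 8.04 on the control arrays and 8.20, 8.30, 8.27 and 8.22 on the labelled-null arrays. Control array 2 lay among the labelled-null values and the other control arrays lay below them. The difference was 0.13 (SE 0.058; exact two-sided permutation p = 0.0857; limma adjusted p = 0.99996). Its paralogs Hoxa5 and Hoxb5 differed by 0.08 each, with groups that overlapped.

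In paralog group 13, 0 of 4 members passed the threshold, and the labelled-null mean lay below control for all 4, beside 50.6% above among all genes. Hoxa13 read 5.84, 5.84, 5.82 and 5.82 on the control arrays and 5.72, 5.63, 5.75 and 5.73 on the labelled-null arrays. Its groups did not overlap, but both lie beside the 30th percentile mark, and the difference was -0.13 (SE 0.049; exact two-sided permutation p = 0.0286; limma adjusted p = 0.99996). Its control arrays spread by an SD of 0.01, the labelled-null arrays by 0.06. Hoxd13 read 5.80, 5.40, 5.25 and 5.35 on the control arrays and 5.13, 5.30, 5.23 and 5.37 on the labelled-null arrays; control array 1 lay above the rest, and the difference of -0.19 became -0.07 without it. Hoxb13 differed by -0.03, and by 0.02 without labelled-null array 2 and 0.0078 without labelled-null array 3.

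Hoxc13, the hair follicle member of the family, had the largest difference of the 37 and the largest spread within groups. It read 6.66, 7.05, 7.24 and 6.95 on the control arrays and 6.65, 6.69, 6.96 and 6.12 on the labelled-null arrays. The groups overlapped, since control array 1 read as low as labelled-null arrays 1 and 2, and labelled-null array 4 read lowest. The difference of -0.37 (SE 0.172; exact two-sided permutation p = 0.143; limma adjusted p = 0.99996) was -0.21 without labelled-null array 4 and -0.49 without labelled-null array 3. Of 24 listed genes of hair shaft and inner root sheath 21 were measured, and 0 passed the limma threshold. Means lay below control for 18 and above for 3, with a median difference of -0.11, beside 50.6% above and a median of 0.001 among all genes. An unadjusted p under 0.05 was found for 3, Krt71, Krt27 and Krt31, beside 3.57% of all genes. The summed level of the list was 11.80, 11.93, 12.08 and 11.96 on control arrays 1 to 4 and 11.74, 11.82, 11.83 and 11.76 on labelled-null arrays 1 to 4 (log2 of the summed linear values), so the groups overlapped, and Krt26 alone was below the 30th percentile on all arrays. In control skin Hoxc13 and this sum were both lowest on array 1 and highest on array 3. In labelled-null skin both were highest on array 3, but Hoxc13 was lowest on array 4 and the sum on array 1. The sum weighs its brightest genes most, Gata3 (9.64 in control and 9.53 in labelled null) and Lef1 (9.48 and 9.53). Of the inner root sheath keratins, Krt71, Krt73, Krt25 and Krt28 were lowest in labelled null on array 4 (6.13, 6.41, 6.04 and 4.83). Krt26, Krt27 and Krt72 were not lowest there. The part of hair follicle content in the value of Hoxc13 was not tested.

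**Figure D3:**
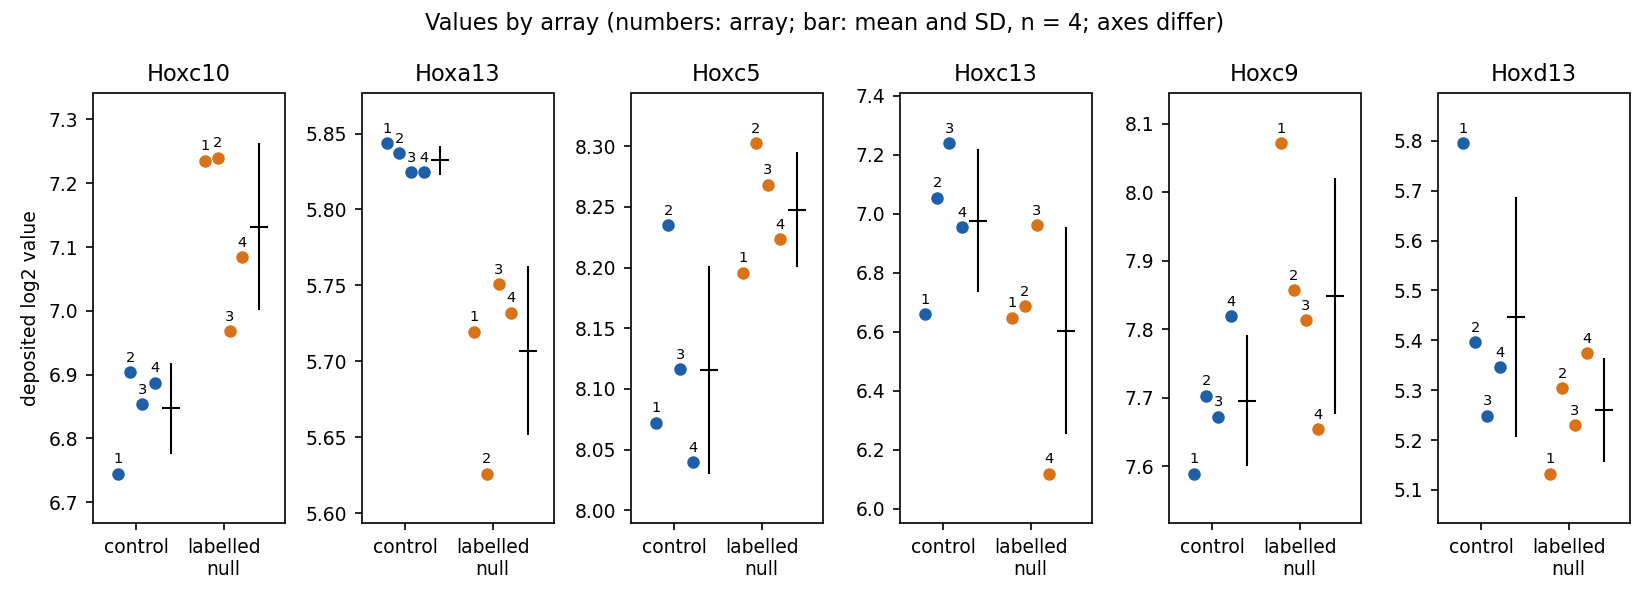
Deposited log2 values of the 6 Hox genes with the smallest limma p, 1 point per array numbered by its array, with the mean and SD of each group (n = 4) as a black bar; the y axes differ. The groups are apart for Hoxc10 and Hoxa13 and overlap for Hoxc5, Hoxc13, Hoxc9 and Hoxd13.

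Single arrays lay apart for some other members. Hoxa2 read 6.91, 6.92, 7.06 and 6.90 on the control arrays and 6.80, 6.96, 6.94 and 6.91 on the labelled-null arrays. Hoxa4 read 7.44, 7.65, 7.51 and 7.50 on the control arrays and 7.50, 7.48, 7.50 and 7.50 on the labelled-null arrays, with exactly the same deposited value on 4 arrays. Hoxb1, the hindbrain gene, read 7.22, 7.06, 7.06 and 7.09 on the control arrays and 7.28, 7.17, 6.997 and 7.12 on the labelled-null arrays. Control array 1 was far from the other control arrays for Hoxb1 and for Hoxb7. Hoxb7 read 6.84, 7.12, 7.17 and 7.16 on the control arrays and 7.18, 7.12, 7.09 and 7.08 on the labelled-null arrays. Hoxd11 read 6.15, 6.17, 6.17 and 6.30 on the control arrays and 6.43, 6.30, 6.14 and 6.38 on the labelled-null arrays. For all 5 the groups overlapped. Among the members not described above, Hoxa3, Hoxb4, Hoxb6, Hoxc4, Hoxc11, Hoxc12, Hoxd1, Hoxd3 and Hoxd12, differences ran from -0.09 (Hoxd3) to 0.14 (Hoxc11), with overlapping groups.

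The profile along the clusters varied between arrays of the same group. Deviations were taken from each member's mean over 8 arrays and averaged by paralog range. For groups 5 to 8 the averages were -0.12, 0.02, 0.03 and -0.01 on control arrays 1 to 4 and 0.03, 0.02, 0.06 and -0.04 on labelled-null arrays 1 to 4, so control array 1 and labelled-null array 4 were lowest. For groups 1 to 4 they ran from -0.02 to 0.02 in control and from -0.07 (array 4) to 0.05 (array 1) in labelled null. For groups 9 to 13 they were -0.0094, -0.03, 0.02 and -0.0093 in control and 0.04, 0.02, -0.03 and 0.0008 in labelled null, with values of both signs in both groups. For groups 9 and 10 alone, a range chosen after the values were seen, they were -0.10, -0.04, -0.06 and 0.01 in control and 0.11, 0.10, -0.01 and -0.02 in labelled null, highest on labelled-null arrays 1 and 2. Control array 1 held the lowest value of 10 members and labelled-null array 4 that of 8, while labelled-null array 1 held the highest value of 11. These counts were not made over all genes, so they cannot be read as particular to the Hox genes.

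Krt4 and Krt13, keratins of mucosal epithelia and not of mature skin, were highest on the same pair of arrays that were lowest for groups 5 to 8. Krt13 read 8.63, 7.24, 6.04 and 6.58 on control arrays 1 to 4 and 7.75, 7.81, 6.88 and 9.25 on labelled-null arrays 1 to 4. The sum of Krt4 and Krt13 was 9.07 on control array 1 and 9.70 on labelled-null array 4, against 6.94 to 8.40 on the others (log2 of the summed linear values). Both genes lay above the 30th percentile on all arrays, and neither passed the limma threshold. Other lists also set these 2 arrays apart within their groups. The dermal fibroblast sum was lowest on control array 1 (14.61) and labelled-null array 4 (14.52), as was the skeletal muscle sum (14.47 and 14.33). The retinoic acid and Cdx sum was highest there (12.93 and 12.92). That sum weighs its brightest gene, Crabp1, most, and Crabp1 was itself highest on these arrays (11.66 and 11.70). The epidermal sum was lowest on control array 2 and labelled-null array 1. The relation of these sums to the Hox values was not tested.

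**Figure D4:**
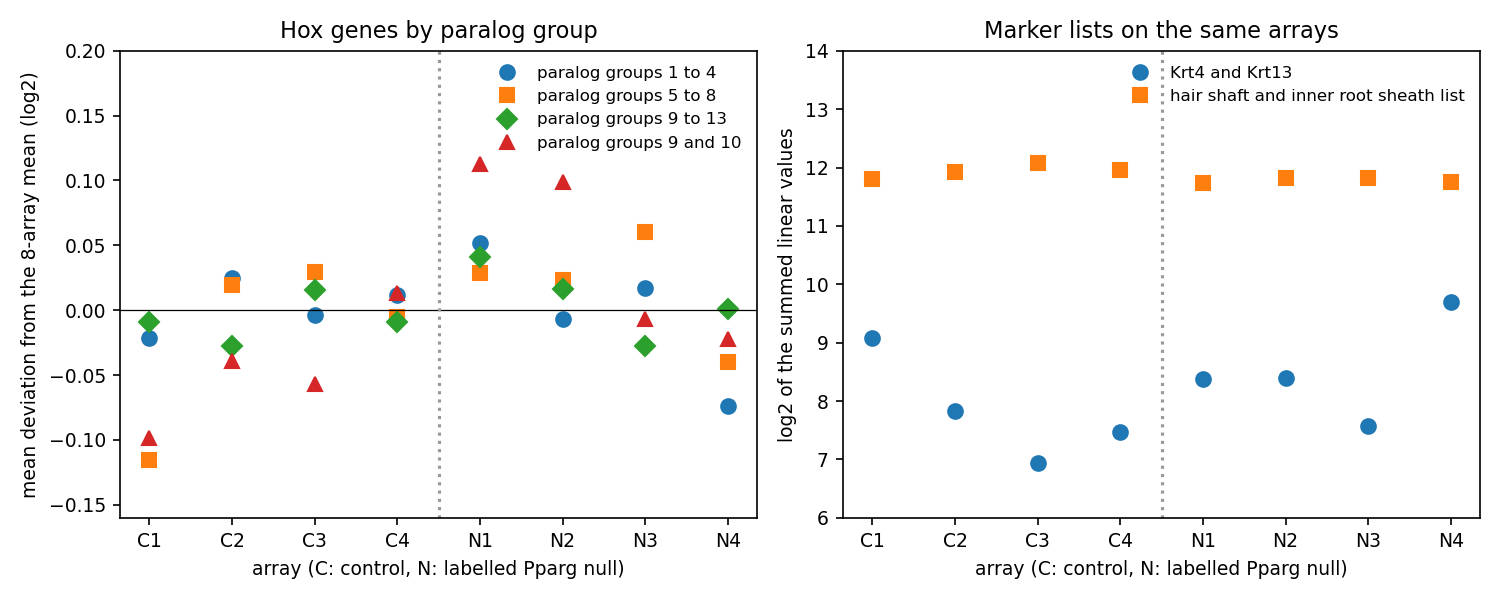
Left, the mean deviation (log2, y axis) of Hox genes from their 8-array means by paralog group, with groups 9 and 10 also shown apart from 9 to 13, on each array (x axis; C, control; N, labelled null); right, log2 of the summed linear values of Krt4 with Krt13 and of the list of hair shaft and root sheath genes on the same arrays. Arrays C1 and N4 are lowest for groups 5 to 8 (-0.12 and -0.04) and highest for Krt4 with Krt13 (9.07 and 9.70).

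Among genes that act with or on the Hox clusters 0 passed the threshold. Of the Hox cofactors, which bind DNA beside Hox proteins, 8 of 9 listed were measured, 0 passed the limma threshold, and the differences ran from -0.11 (Pbx2) to 0.12 (Meis1). Of the Polycomb and Trithorax genes, whose products keep Hox genes silent or active, 21 of 23 were measured, with 0 past the threshold. Means lay below control for 15 and above for 6, with a median difference of -0.04. Among all genes 50.6% lay above and the median was 0.001. The largest difference was that of Ring1 at -0.11. Of the retinoic acid and Cdx genes, which set Hox expression in the early embryo, 19 of 20 were measured and 0 passed. The retinoic acid binding protein Crabp2 differed by 0.23, and Cdx4 and the retinoic acid degrading enzyme Cyp26a1 were below the 30th percentile on all arrays. No gene of these 3 lists had an unadjusted limma p under 0.05, beside 3.57% of all genes.

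Other transcription factors that mark body sites were read as a further view of the skin site. Of 28 listed 24 were measured, 12 above and 12 below control. The limma threshold was passed by 0, and 0 had an unadjusted limma p under 0.05, beside 3.57% of all genes. Tbx15, a gene of trunk dermis, was the brightest at 10.13 in control and 10.15 in labelled null. The forelimb gene Tbx5 was at 6.02 and 5.83, the hindlimb genes Tbx4 and Pitx1 at 6.43 and 6.44 and at 6.42 and 6.42, and En1, a gene of ventral ectoderm and of dorsal dermis, at 7.45 and 7.46. Alx4 and Msx1 differed by -0.18 and -0.14.

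The Hox clusters also hold microRNA genes, of which the miR-196 family is known to act on several Hox transcripts, Hoxc8 among them. Their mature sequences, from RefSeq (GRCm38.p6), fall into 2 groups by seed, bases 2 to 8, in capitals, which is why they are shown; miR-10b differs from miR-10a, and miR-196b from miR-196a, outside the seed.
miR-10a-5p (Hoxb cluster): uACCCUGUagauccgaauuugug
miR-10b-5p (Hoxd cluster): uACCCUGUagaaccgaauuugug
miR-196a-5p (Hoxb and Hoxc clusters): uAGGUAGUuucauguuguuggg
miR-196b-5p (Hoxa cluster): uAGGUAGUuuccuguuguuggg
Rows of these genes on a whole-transcript array do not measure the mature forms. Those of Mir10a, Mir10b and Mir196a-2 were below the 30th percentile on all arrays. Mir196a-1 read 5.86, 6.42, 6.64 and 6.11 on the control arrays and 6.89, 6.40, 6.41 and 5.82 on the labelled-null arrays, with control array 1 and labelled-null array 4 lowest. Of 24 noncoding genes listed for the clusters 10 were measured, and 0 passed the limma threshold. An unadjusted limma p under 0.05 was found for 0, beside 3.57% of all genes. Mir615 differed by -0.13 (7.58 in control and 7.45 in labelled null), and the long noncoding RNA Hottip of the Hoxa cluster was below the 30th percentile on all arrays at 5.43 in both groups.

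The tissue of the samples read as skin in both groups. The epidermal keratins Krt1, Krt10, Krt5 and Krt14 lay between 11.88 and 13.16, and the dermal genes Col1a1, Col1a2 and Dcn between 12.26 and 12.67. Skeletal muscle genes were all above the 30th percentile, with a summed level of 14.47 to 14.72 in control and 14.33 to 14.85 in labelled null, so Hox signal of muscle and of skin cannot be told apart in these samples. The cartilage list summed to 10.34 to 10.42 in control and 10.25 to 10.36 in labelled null, with Matn1 and Matn3 below the 30th percentile on all arrays. The neuron list summed to 9.38 to 9.57 and 9.39 to 9.65, with 5 of 8 genes below that mark on all arrays. The Schwann cell list, with 3 of 5 genes measured, summed to 11.78 to 12.03 and 11.88 to 12.07. Nearly all of that sum was Pmp22 (11.76 in control and 11.82 in labelled null). Mbp was at 7.61 and 7.57 and Sox10 at 7.39 and 7.41. The summed level overlapped between the groups for all 13 lists. In bulk skin a change in the number of cells of a type and a change in RNA per cell cannot be told apart.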

How the data were processed

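RNA of full-thickness skin was amplified, labelled with biotin and read on 8 single-colour Affymetrix arrays, per the labels' protocols. Per the submitters' processing notes, the authors made the deposited log2 values in Affymetrix Expression Console by RMA; its version, the annotation build and any filter were not given in the sources used here. RMA quantile-normalizes the arrays, which hides any shift common to all transcripts. Of 35556 rows, 21789 carried 1 gene symbol in the platform annotation, 1621 several and 12146 none listed; current symbols came from the gene ID of 21698 rows listed in the RefSeq table of assembly GRCm38.p6. The brightest row stood for a gene, with no filter on dim rows, since the member rule keeps them.

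Groups came from the titles in the labels. Differences are labelled null minus control, fitted by limma (3.58.1, R 4.3.3; lmFit, eBayes) without covariates, two-sided, with Benjamini-Hochberg adjustment over 19938 genes. Single values were also tested by exact permutation over 70 assignments. In a simulation of the 4 against 4 comparison over 19938 genes, changes of 0.5 were recovered in 77.0% and of 1 in 97.0%, with 5.54% false calls. It used independent normal noise and changed more genes than the 16 that passed in the data. Recovery depends on that number, so these shares do not carry over to the Hox comparison. In the data Cd36 at -0.92 passed and Krt71 at -0.96 did not (limma adjusted p = 0.00728 and 0.911). The precision is limited by 4 arrays per group. Array medians lay between 6.93 and 6.96, and pairs of arrays correlated at r = 0.989 to 0.994. The check given in the closing section found no pairing by replicate number.

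Members and lists were chosen with earlier results of these data known. Named are all members. Values on every array are given for the 2 brightest of each cluster and the 6 with the smallest limma p. They are also given for those whose groups do not overlap and those with 1 array far from its group. From other lists at most the 3 genes with the smallest p and the 2 brightest are named. A few more are named for their known site, because they were dim, or for their values on single arrays. Alternatives covered filters, scaling, prior, weights, a replicate block, Xist as a covariate, the row per gene, thresholds and arrays left out.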

Additional observations from a re-analysis of the deposited data

Results flagged for a closer look

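In 5 of 74 groups of 4 values (37 members in both groups) a single array lay far from the other 3; by chance about 3.7, or 1 in 20, would. The gap to the nearest array is given as a share of the group's range, beside a critical value of 0.829. Hoxa2 read 7.06 on control array 3 against 6.90 to 6.92 on the others (0.895). Hoxa4 read 7.48 on labelled-null array 2 against 7.50 on the other 3, which held identical values (1), so the whole range there is 0.02. On control array 1 Hoxb1 read 7.22 against 7.06 to 7.09 (0.857) and Hoxb7 read 6.84 against 7.12 to 7.17 (0.849). Hoxd11 read 6.30 on control array 4 against 6.15 to 6.17 (0.854).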

How the results depend on the processing

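The count of Hox genes past the limma threshold was 0 under every setting run: filters at the 30th (31 members fitted) or 50th percentile (23), cyclic loess, median centring, array weights, a trended and robust prior, the replicate block, Xist as a covariate, the mean or each row of a gene, an adjusted p of 0.1 or 0.01, each array left out, and control array 1 with labelled-null array 4 left out. The median difference over members, 0.03, ran from -0.0005 (without control array 1) to 0.0444 (without control array 4) when 1 array was left out. The count over all genes, 16, was 1 with the replicate block, 4 with Xist as a covariate, 8 with both control array 1 and labelled-null array 4 left out, and 2 at an adjusted p of 0.01. It was 3 to 12 when 1 array was left out: 4 without control array 2 or 3, 5 without control array 4 or labelled-null array 1, 3 without labelled-null array 2, 9 without array 3 and 6 without array 4. Deviations from the group means correlated between arrays of the same number at r = -0.22, 0.16, 0.09 and -0.07, for 0 of 4 numbers was that the best match, and the numbers were therefore not taken as pairs. Under the other settings 22 of 37 members kept the sign of their difference throughout and 15 did not, with turns under arrays centred on the median, array weights or arrays left out. The causes of these changes were not tested. The dim rows limit what can be read for Hoxa11, Hoxc11, Hoxc12, Hoxd1, Hoxd12 and Hoxd13. The same limit holds for Hoxa13 and Hoxb13, which lie beside the 30th percentile mark.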
